A study of Mus musculus with 15 samples.

Results

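The 10 genes described here encode 9 clotting proteins (F2, F5, F7, F8, F9, F10, F11, F12 and F13b) and plasminogen (Plg). They were taken by name: every probe whose gene name in the scanner files was one of these symbols, which gave 12 of 41174 probes and 10 of 27343 gene names. F9 and Plg had 2 probes each and the other members 1. Expandable hepatocytes from the livers of 3 mice had been grown for 21 days in an expansion medium (eHep) or a differentiation medium (mHep), and expression was read on 15 Agilent 1-colour arrays. No label explains the abbreviation mHep, read here as the cells in differentiation medium. Mouse 129S1-No1 (strain 129S1) and mouse C57B6-No1 (strain C57B6) gave 3 eHep and 3 mHep arrays each, and mouse 129S1-No2 (strain 129S1) gave 1 of each. A single array held primary hepatocytes of C57B6 mice, isolated by collagenase perfusion. The mHep array of 129S1-No2 carries a source name that reads eHep and was placed by its title. No age, sex or genotype beyond the strain was given for any group. Nothing in the labels says that the 3 arrays of a mouse came from separate cultures, so p-values within a mouse measure the spread between arrays of 1 animal.

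Clotting starts when tissue factor binds factor VII and runs through factor X to thrombin, the product of F2, which cuts fibrinogen into fibrin. Factors XII, XI, IX and VIII feed the same cascade from the contact side, factor V assists factor X, and factor XIII cross-links the clot that plasmin, made from plasminogen, later dissolves. Hepatocytes make most of these proteins and release them into blood, whereas factor VIII is known mainly as a product of liver endothelial cells. Factors II, VII, IX and X must be carboxylated in a reaction that uses vitamin K before they can bind membranes.

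The sequences below belong to the members on which the results turn. Each probe is a 60-base oligonucleotide given in the scanner files with its position in mm9. The F10 probe lies on the plus strand of chromosome 8 from 13055774 to 13055833, and the second F9 probe on the plus strand of chromosome X from 57282531 to 57282590. Both are shown because F10 had the clearest change between media and the F9 probes differed from each other. The probes of F8 and F5 cover 889 and 2189 bases of the genome for 60 bases of transcript and therefore cross an intron.
F10 probe: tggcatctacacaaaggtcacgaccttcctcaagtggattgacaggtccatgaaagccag
F9 second probe: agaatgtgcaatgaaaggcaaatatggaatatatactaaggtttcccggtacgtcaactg

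The promoter sequences are from RefSeq in GRCm38.p6 and run from 250 bases before to 30 bases after the annotated start, 5′ to 3′ along the gene. They are shown for F10, which was higher in mHep in all 3 mice, and for F2 and F11. These 2 read far higher in eHep of 129S1-No1 than in eHep of the other mice. The F10 window is chr8:13037058-13037337 on the plus strand, the F2 window chr2:91636428-91636707 on the minus strand and the F11 window chr8:45262002-45262281 on the minus strand. Capitals mark matches, on either strand, to the motifs described next.
F10 promoter: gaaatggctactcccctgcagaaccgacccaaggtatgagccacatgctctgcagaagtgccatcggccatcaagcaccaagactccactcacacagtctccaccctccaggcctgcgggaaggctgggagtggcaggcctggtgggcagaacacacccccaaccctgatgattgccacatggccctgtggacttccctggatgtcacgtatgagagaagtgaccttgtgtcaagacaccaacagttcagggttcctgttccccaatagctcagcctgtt
F2 promoter: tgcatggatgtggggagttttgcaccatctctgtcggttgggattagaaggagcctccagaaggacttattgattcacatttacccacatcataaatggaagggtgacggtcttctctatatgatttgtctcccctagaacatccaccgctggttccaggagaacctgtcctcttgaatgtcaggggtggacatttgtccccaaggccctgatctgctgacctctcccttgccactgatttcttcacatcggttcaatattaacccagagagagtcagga
F11 promoter: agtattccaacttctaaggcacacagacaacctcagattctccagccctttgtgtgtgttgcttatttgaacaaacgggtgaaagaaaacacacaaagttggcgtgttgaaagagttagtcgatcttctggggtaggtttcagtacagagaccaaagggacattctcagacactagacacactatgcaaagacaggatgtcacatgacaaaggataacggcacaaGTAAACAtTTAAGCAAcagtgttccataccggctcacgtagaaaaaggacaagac

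RefSeq promoters were found for 9 members and searched over the full 300 bases from 250 before to 50 after the start, on both strands. The C/EBP pattern TTGCNNAA was found in F9 at -24 and in F11 at -17, and 10.8% of 32851 mouse promoters of that length hold it. The FOXA pattern TGTTTAC was found in F11 at -25, against 3.65%, and lies next to the C/EBP match without overlapping it. The GC box GGGCGG was found in F5, at -177, against 35.7%. The HNF4 pattern CAAAGTCCA, searched by its exact letters, was found in 0 of the 9, and 0.475% of promoters hold it. With so rare a pattern, 0 in 9 promoters does not show that HNF4 sites are absent, and looser matches were not searched. F2, F7, F8, F10, F12 and F13b held none of these 4 patterns.

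Levels are given as log2 of the processed signal minus the 75th percentile of the same array, so that 0 is the signal that 75% of the probes of the array do not exceed. They are compared within a probe and never between probes. A reading is called well above background, here also bright, by the flag of the scanner software. A dim reading is one without that flag. On the cultured arrays 48.8% to 61.9% of probes were well above background, against 36.3% on the primary array, whose 75th percentile of signal was 78.32 against 248.6 to 826.6 elsewhere. The files name 2 versions of the scanner software, called the earlier and the later scan here. These names follow the version number alone, and no scan date was used. The earlier holds the single primary array together with replicate 3 of C57B6-No1 in either medium and the pair from 129S1-No2, and the later holds the other 10 arrays. The arrays are bulk samples, in which fewer cells that make a transcript and less of it per cell cannot be told apart. The labelled cell type was checked on 8 hepatocyte markers, of which 8 were bright on the primary array, 8 on at least 1 mHep array and 5 on at least 1 eHep array. Their summed level was 1.81 to 4.13 in eHep, 7.33 to 10.02 in mHep and 12.78 in primary hepatocytes. Biliary markers summed to 8.07 to 9.27 in eHep, 7.22 to 9.73 in mHep and 2.43 in primary hepatocytes. Mesothelial markers, in culture mostly Msln, summed to 6.27 to 8.57, 3.12 to 8.19 and -1.97 in the same order. Kupffer markers went the other way, at -2.05 to 1.67, -1.27 to 0.25 and 4.26. Which cells these readings came from was not tested.

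The clotting genes were bright in primary hepatocytes and mostly dim in expanding cells. In primary hepatocytes 9 of the 10 members were well above background, F8 being the exception. In eHep, F9 was bright on all 7 arrays by its brighter probe, while F5, F12, F13b and Plg were dim on all 7. In mHep, F2, F9, F10 and F12 were bright on all 7 arrays, and every member was bright on at least 1. After scaling, the highest reading of each of the 10 probes used was that of the primary array, though for F8 it was dim. Before scaling, the primary signal was below the highest cultured signal for F7 (1640 against 2080) and F8 (20.3 against 39). The same held for F9 (279 against 508) and F11 (1670 against 1700). For F2, F5, F10, F12, F13b and Plg the primary signal was the highest before scaling too.

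**Figure D1:**
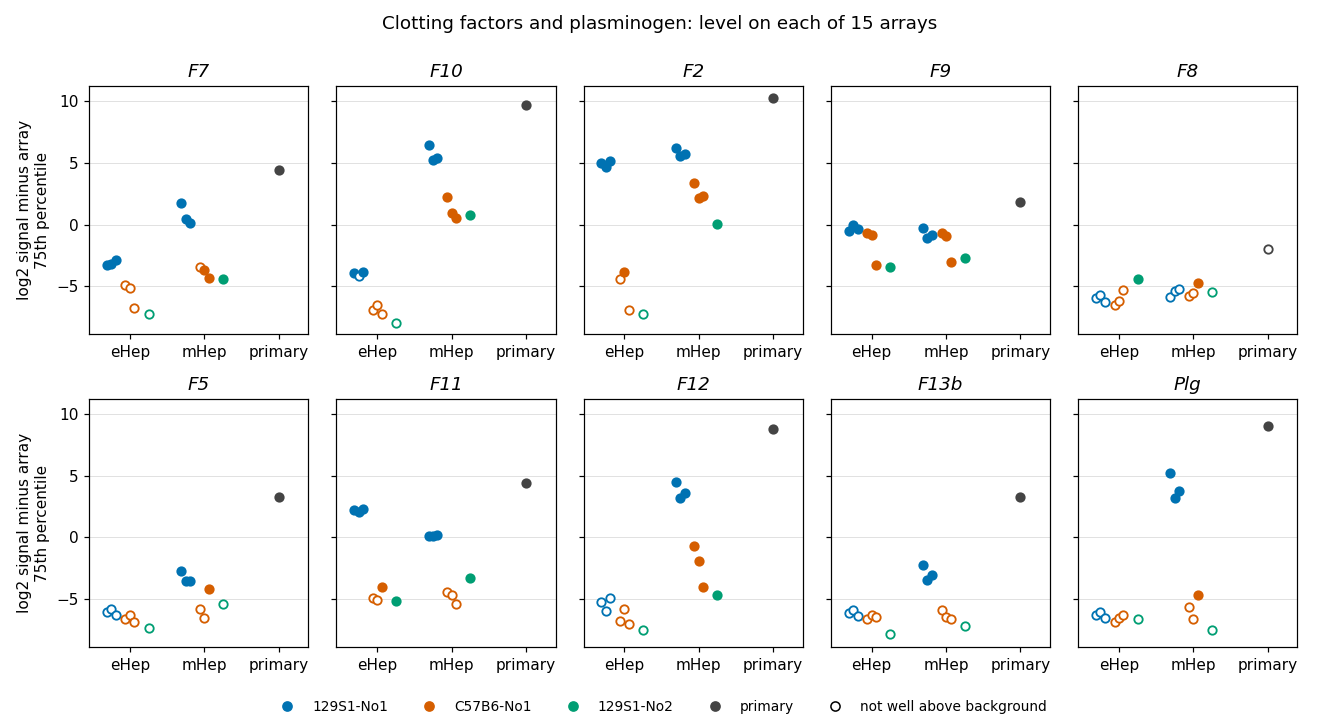
Level of each member (vertical axis, log2 signal minus the 75th percentile of the array) on the 15 arrays, grouped along the horizontal axis by eHep, mHep and primary and coloured by mouse; each point is 1 array and an open point is a reading not well above background. F10 and F12 have no overlap between the eHep and mHep arrays, though all eHep readings of F12 are dim. F2 and F11 are bright in eHep of 129S1-No1, and Plg and F13b are bright in mHep of that mouse.

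F10 encodes factor X, the protease at which both arms of the cascade meet, and its level was higher in mHep than in eHep in every mouse. The 7 eHep arrays read from -7.96 to -3.80 with a median of -6.54, and the 7 mHep arrays from 0.54 to 6.46 with a median of 2.22. Primary hepatocytes read 9.66. The eHep and mHep arrays did not overlap, and all 7 mHep arrays were bright while 5 of 7 eHep arrays were dim. Mouse 129S1-No1 had a difference of 9.64, C57B6-No1 one of 8.11 and 129S1-No2 one of 8.78. Over the 3 mice the log2 difference was 8.84 ± 0.45 (SE, adjusted p = 0.00195), at least 165-fold once dim eHep readings were raised to the limit of brightness of their array. Fold bounds hold for the main background and scaling alone. Across the alternative settings the log2 difference was as small as 5.32 over the mice and 7.44 in 129S1-No1. The call rests on the pairing by mouse, since without a mouse term the adjusted p was 0.15. With arrays of the earlier scan alone the difference was 8.27, and with those of the later scan 9.10. The size of the change in C57B6-No1 is less sure, because its 3 eHep readings were dim: as bounds, the change was at least 735-fold in 129S1-No1 and 57.7-fold in C57B6-No1. The change in 129S1-No1 minus that in C57B6-No1 was 1.53 (interaction, adjusted p = 0.117). It was 3.67 (adjusted p = 0.00234) with dim readings raised to the limit, 3.28 (adjusted p = 0.0217) with normexp, another background correction, and 1.93 (adjusted p = 0.0347) after quantile normalization. Without mHep replicate 1 of C57B6-No1 it was 2.02 (adjusted p = 0.0246). With normexp the C57B6-No1 change itself was 4.16 (adjusted p = 0.000171). In mHep the mice did not stand at 1 level: 129S1-No1 read 6.46, 5.21 and 5.43, C57B6-No1 read 2.22, 0.96 and 0.54, and 129S1-No2 read 0.82. The array of 129S1-No2 lay within the range of C57B6-No1.

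F7 encodes factor VII, the protease that tissue factor activates, and its gene is the direct neighbour of F10 on chromosome 8. Its probe lies at 13035287 to 13035346 (mm9). In eHep, 129S1-No1 read -3.29, -3.19 and -2.90, all bright, whereas C57B6-No1 read -4.88, -5.15 and -6.73 and 129S1-No2 read -7.22, all dim. In mHep, 129S1-No1 read 1.73, 0.43 and 0.16, C57B6-No1 read -3.44, -3.65 and -4.34 and 129S1-No2 read -4.38, with the first C57B6-No1 reading dim. The eHep and mHep arrays overlapped as groups, while within each mouse every mHep array was above every eHep array. Over the 3 mice the log2 difference was 2.84 ± 0.51 (adjusted p = 0.0616), which missed the threshold of 0.05. It was 3.90 ± 0.52 in 129S1-No1 (adjusted p = 0.000247) and 1.78 ± 0.52 in C57B6-No1 (adjusted p = 0.0280), and 2.85 between the single arrays of 129S1-No2. The C57B6-No1 value was 0.41 (adjusted p = 0.741) with normexp and 0.80 (adjusted p = 0.171) with dim readings raised to the limit, and its call was also lost without replicate 3 of eHep (adjusted p = 0.0660) or replicate 1 or 2 of mHep (adjusted p = 0.0654 and 0.0829). In primary hepatocytes F7 read 4.39.

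F2 encodes prothrombin, and its pattern depended on the mouse. In eHep of 129S1-No1 it read 5.0, 4.68 and 5.19, close to its mHep readings of 6.19, 5.58 and 5.69 in that mouse. In eHep of C57B6-No1 it read -4.40, -3.81 and -6.94, of which only -3.81 was bright, and in 129S1-No2 it read -7.25, dim. In mHep, C57B6-No1 read 3.35, 2.17 and 2.31 and 129S1-No2 read 0.07, all bright. The eHep arrays of 129S1-No1 were thus above the mHep arrays of both other mice. The log2 difference was 7.66 ± 0.67 in C57B6-No1 (adjusted p = 1.89e-05) and 7.32 between the single arrays of 129S1-No2. In 129S1-No1 it was 0.87 ± 0.67 (adjusted p = 0.296). With arrays of the later scan alone, which holds all arrays of that mouse, the same 0.87 was called (adjusted p = 0.0373). The change in 129S1-No1 minus that in C57B6-No1 was -6.80 ± 0.94 (interaction, adjusted p = 0.00111), and -6.0 with arrays of the later scan alone. Over the 3 mice the difference was 5.28 ± 1.33 (adjusted p = 0.137). F2 read 10.28 in primary hepatocytes.

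F12 encodes factor XII, which starts the contact pathway, and it was dim on all 7 eHep arrays, from -7.50 to -4.88 with a median of -5.94. In mHep it was bright on all 7, but over a wide span. The mHep arrays of 129S1-No1 read 4.52, 3.16 and 3.60, those of C57B6-No1 read -0.65, -1.90 and -3.97, and that of 129S1-No2 read -4.69. The eHep and mHep arrays did not overlap, though the lowest mHep array stood only just above the highest eHep array. This rests on dim eHep values. The limit of brightness of eHep replicate 2 of 129S1-No1 was -3.76, above the lowest mHep reading. The log2 difference was 9.11 ± 0.72 in 129S1-No1 (adjusted p = 8.45e-06), at least 221-fold, and 4.35 ± 0.72 in C57B6-No1 (adjusted p = 0.00144), at least 5.41-fold. In 129S1-No2 it was 2.81, at least 2.34-fold. With normexp the C57B6-No1 value was 1.26 (adjusted p = 0.219), and across the alternative settings the 129S1-No1 value was as small as 5.67. The fold bounds thus hold for the main background and scaling alone. The change was larger in 129S1-No1 than in C57B6-No1 by 4.76 ± 1.02 (adjusted p = 0.0111). Over the 3 mice the difference was 5.42 ± 1.15 (adjusted p = 0.0909). The primary array read 8.80, which was 5.04 above the mHep mean of 129S1-No1 and 13.49 above the mHep array of 129S1-No2.

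F11 encodes factor XI, which activates factor IX, and it was lower in mHep than in eHep of 129S1-No1. In that mouse eHep read 2.23, 2.09 and 2.30 and mHep read 0.16, 0.16 and 0.23. The log2 difference was -2.02 ± 0.30 (adjusted p = 0.000567), and the 3 arrays of each medium lay close together, with an SD of 0.10 in eHep and 0.04 in mHep. In C57B6-No1 the eHep arrays read -4.88, -5.07 and -4.02 and the mHep arrays -4.45, -4.69 and -5.36, of which only -4.02 was bright. The difference there was -0.17 ± 0.30 (adjusted p = 0.756), and it was 0.41 in the later scan alone. In 129S1-No2, F11 went from -5.11 to -3.31, both bright. The change in 129S1-No1 minus that in C57B6-No1 was -1.85 ± 0.43 (adjusted p = 0.0165), and the 3 mice had no common direction, with -0.13 ± 0.73 over all (adjusted p = 0.959). With the 14 arrays as samples and slide as a term, F11 was called lower in mHep at -1.55 (adjusted p = 0.00239). F11 read 4.42 in primary hepatocytes.

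Klkb1, the gene of plasma prekallikrein, follows F11 directly on chromosome 8. Its probe was dim on all 14 cultured arrays, from -7.84 to -5.82, and read 3.32 on the primary array. The adjacent genes thus differed in eHep of 129S1-No1, where F11 was bright on 3 of 3 arrays and Klkb1 on 0 of 3.

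F9 encodes factor IX, the protease lacking in haemophilia B, and its probes gave different pictures in cultured cells. The brighter probe, on chromosome X from 57282894 to 57282953, was bright on all 15 arrays. On eHep arrays, 129S1-No1 read -0.53, 0.00 and -0.32, C57B6-No1 read -0.67, -0.82 and -3.25 and 129S1-No2 read -3.45. On mHep arrays the same mice read -0.30, -1.11 and -0.81, then -0.68, -0.88 and -3.06, then -2.70. These readings divided by scan: the 4 cultured arrays of the earlier scan read -3.45 to -2.70, and the 10 of the later scan read -1.11 to 0.00. The means of the earlier and later scan were -3.35 and -0.47 in eHep and -2.88 and -0.76 in mHep. Over the 3 mice the difference between media was 0.11 ± 0.42 (adjusted p = 0.937), and within the later scan it was -0.29.

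The second F9 probe, printed above, was dim on all 7 eHep arrays, from -7.61 to -5.18. Among mHep arrays it was bright on those of 129S1-No1 at -2.23, -3.70 and -3.40 and dim on the other 4, from -7.45 to -5.99. In 129S1-No1 it gave a difference between media of 2.44 (adjusted p = 0.00198), where the brighter probe gave -0.46 (adjusted p = 0.613). On the primary array the probes read 1.83 and 1.62. Which probe follows the F9 transcript in cultured cells was not tested, so a direction for F9 between media is not given here.

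**Figure D2:**
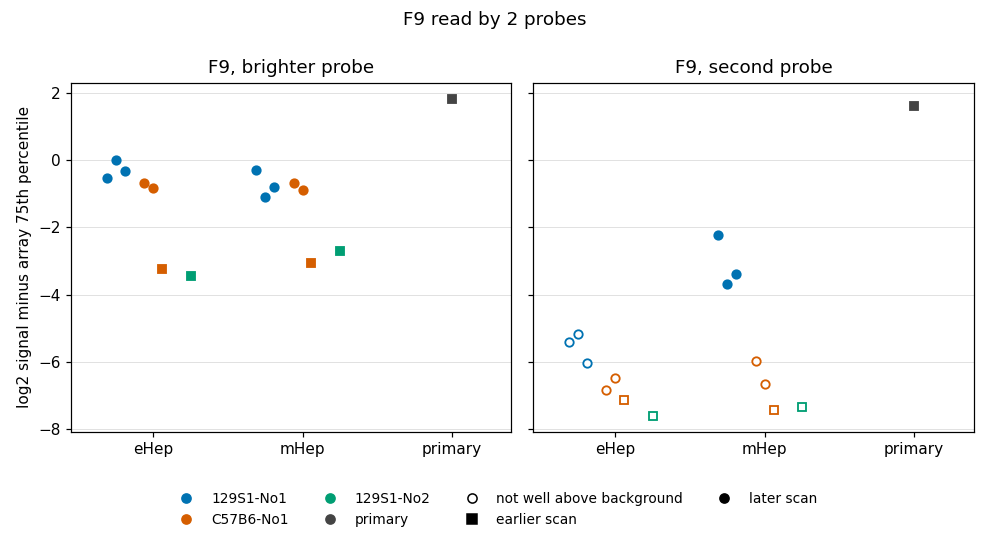
F9 level (log2 signal minus the 75th percentile of the array) on the 15 arrays by the brighter probe, left, and the second probe, right; colour gives the mouse, squares the earlier and circles the later scan, and open symbols are readings not well above background. On the left the squares of the cultured cells lie between -3.45 and -2.70, below all circles, and on the right only the mHep arrays of 129S1-No1 and the primary array are filled.

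F8 encodes factor VIII, the cofactor of factor IX. Its probe was well above background on 2 of 15 arrays, eHep of 129S1-No2 at -4.40 and mHep replicate 3 of C57B6-No1 at -4.71. The 7 eHep readings ran from -6.54 to -4.40 with a median of -5.96 and the 7 mHep readings from -5.89 to -4.71 with a median of -5.42, so the media overlapped. The primary array read -1.95 without the flag, although its dimmest flagged probe stood at -2.12. Both bright readings were from the earlier scan, and F8 entered no test. Of 12 endothelial markers, 8 were bright on at least 1 array in each group, and their summed level was 2.56 to 4.10 in eHep, 1.13 to 3.13 in mHep and 4.32 in primary hepatocytes. Pecam1 and Tie1 were dim on all 15 arrays and Cdh5 on all cultured ones, while Flt1, Stab1 and Stab2 were bright on all 15. Their part in the F8 readings was not tested.

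F5 encodes factor V, the cofactor of factor X, and it was dim on all 7 eHep arrays, from -7.32 to -5.80 with a median of -6.31. In mHep it was bright in 129S1-No1 at -2.68, -3.52 and -3.53. In C57B6-No1 the mHep readings were -5.82, -6.50 and -4.17, of which only the last was bright, and 129S1-No2 read -5.35, dim. The difference in 129S1-No1 was 2.82 ± 0.50 (adjusted p = 0.00150), at least 1.72-fold. With dim readings raised to the limit it was 0.78 (adjusted p = 0.0534), and with normexp 0.83 (adjusted p = 0.218). In C57B6-No1 it was 1.08 ± 0.50 (adjusted p = 0.147). The primary array read 3.28, far above every cultured array.

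F13b encodes the carrier subunit of factor XIII, and among cultured arrays it was bright on the 3 mHep arrays of 129S1-No1 alone, at -2.20, -3.47 and -3.0. The eHep readings ran from -7.80 to -5.83 and the mHep readings of the other mice from -7.16 to -5.85, all dim. The difference was 3.21 ± 0.33 in 129S1-No1 (adjusted p = 4.34e-05), at least 2.19-fold, and 0.15 ± 0.33 in C57B6-No1 (adjusted p = 0.812). The changes differed by 3.06 ± 0.47 between these mice (adjusted p = 0.00190), and by 1.04 (adjusted p = 0.241) with dim readings raised to the limit. With normexp the 129S1-No1 difference was 0.96 (adjusted p = 0.138). The primary array read 3.24.

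Plg encodes plasminogen, the precursor of the clot-dissolving protease plasmin, and it had the widest span among mice in mHep. It was dim on all 7 eHep arrays, from -6.82 to -6.01 with a median of -6.52. The mHep arrays of 129S1-No1 read 5.25, 3.22 and 3.79. Those of C57B6-No1 read -5.60, -6.57 and -4.66, with only the last bright, and that of 129S1-No2 read -7.45, dim. The difference was 10.36 ± 0.54 in 129S1-No1 (adjusted p = 5.49e-07), at least 276-fold, and 0.93 ± 0.54 in C57B6-No1 (adjusted p = 0.257). Across the alternative settings the 129S1-No1 difference was as small as 6.27, so the fold bound holds for the main background and scaling alone. The changes differed by 9.44 ± 0.77 (adjusted p = 5.32e-05). In 129S1-No2 the difference was -0.87 between dim readings, so the mice of strain 129S1 did not share the pattern. The second Plg probe gave 10.37, 1.19 and -0.67 in the same order of mice, and the primary array read 9.02 and 9.32 by the 2 probes.

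**Figure D3:**
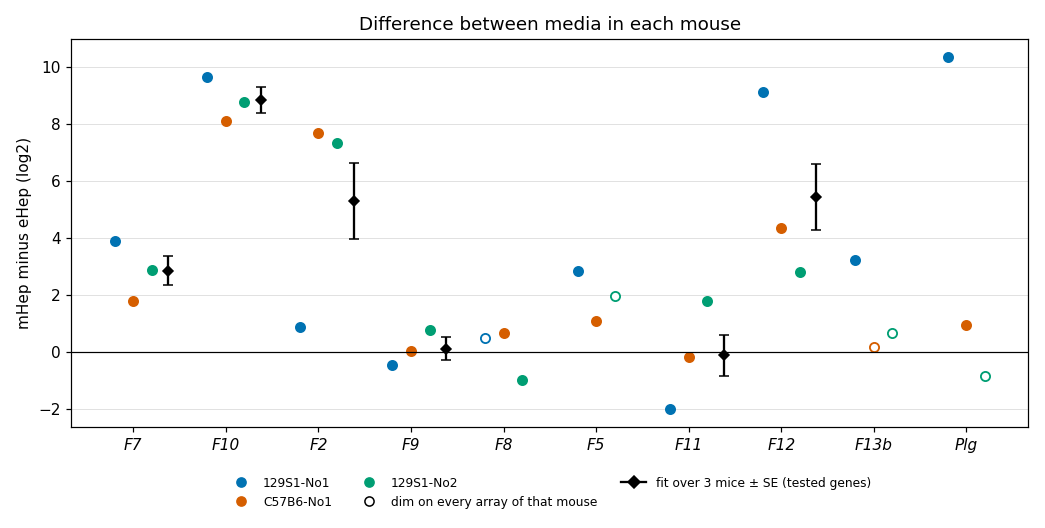
Difference between media (vertical axis, mHep minus eHep, log2) for each member in each of the 3 mice, with an open point where every array of that mouse was dim; diamonds with bars are the fit over 3 mice ± SE for the 6 members tested. F10 lies between 8.11 and 9.64 in all mice, whereas Plg ranges from -0.87 to 10.36 and F2 from 0.87 to 7.66.

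Across the 3 mice, 6 members could be tested between media, and F10 was the 1 called higher. Of all 14597 genes tested, 1.38% were called higher and 0.452% lower. No member was called lower, and 0 of the 6 were lower at an unadjusted p under 0.05, while 4 (F2, F7, F10 and F12) were higher. These 4 passed the filter on dim readings through mHep alone, the medium in which they were high, so their count is no support for a direction of the members. F9 and F11 passed through both media. F5, F8, F13b and Plg were not bright in enough mice to be tested. The count depended on the fit: without a filter on dim probes, F2, F7 and F12 joined F10, with adjusted p of 0.0101, 0.0132 and 0.00360. It was also 4 without mouse 129S1-No1 or without C57B6-No1, and 3 without 129S1-No2. Of the 6 tested members, 2 (F10 and F12) had mHep arrays that lay above all eHep arrays, against 2.75% of tested genes. For F12 this rests on eHep readings that were all dim.

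Within single mice more members were called, beside a larger background. The eHep arrays of 129S1-No1 were all on slide 1 and its mHep arrays on slide 2, so that medium and slide cannot be told apart within that mouse. In 129S1-No1, 6 of 9 tested members were called higher in mHep (F5, F7, F10, F12, F13b and Plg), against 17.3% of all tested genes, and F11 was called lower, against 27.1%. In C57B6-No1, 4 of 9 were called higher (F2, F7, F10 and F12), against 11.8%, and 0 lower, with 0 lower at an unadjusted p under 0.05 by limma, against 13.4% of genes called lower. F5, F10, F12, F13b and Plg entered this fit through their mHep readings of 129S1-No1 or C57B6-No1 alone, so their calls describe where they were bright. With the later scan alone F2 was the seventh member called higher in 129S1-No1, against 23.6% of tested genes. The change differed between the mice for F12, F13b and Plg, which changed more in 129S1-No1 (6.29% of tested genes), and for F2 and F11, which changed less or fell there (10.3%). With arrays of the later scan alone, 7 members differed in place of 5, F5 (2.51, adjusted p = 0.00297) and F7 (2.43, adjusted p = 0.0103) being added. In that fit 12.9% of tested genes changed more in 129S1-No1 and 23.5% less.

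The mice also differed in expansion medium. In eHep, F2, F7, F10 and F11 were higher in 129S1-No1 than in C57B6-No1, by 10.01 ± 0.67, 2.46 ± 0.52, 2.93 ± 0.44 and 6.86 ± 0.30 (adjusted p = 2.43e-06, 0.00525, 0.000622 and 2.01e-07), against 14.9% of tested genes. The eHep readings of C57B6-No1 were dim on 3 of 3 arrays for F7 and F10 and on 2 of 3 for F2 and F11, so the differences depend on dim values. As bounds, 129S1-No1 was at least 648-fold higher for F2, 91-fold for F11, 2.8-fold for F7 and 1.59-fold for F10. In mHep, 8 of 9 members were higher in 129S1-No1, against 12% of tested genes, with F9 at 0.79 ± 0.73 (adjusted p = 0.466) left out of the call. The mHep differences ran from 2.26 ± 0.50 for F5 to 9.70 ± 0.54 for Plg. The mHep arrays of 129S1-No1 were on slide 2 and those of C57B6-No1 on slides 3 and 4, so slide and mouse cannot be told apart there. With dim C57B6-No1 readings raised to the limit, the mHep bounds were at least 1.84-fold for F5, 3.09-fold for F13b, 26-fold for F11 and 331-fold for Plg. For 0 of the 9 members was C57B6-No1 higher in either medium, also at an unadjusted p under 0.05 by limma, while 12.5% of tested genes in eHep and 15.8% in mHep were called higher in that mouse. F5, F7, F11, F13b and Plg entered this fit through arrays of 129S1-No1 alone, the mouse in which they were high. The counts between these mice are therefore no support for a direction of the members. The summed hepatocyte marker level of 129S1-No1 was 2.99 in eHep and 9.73 in mHep, that of C57B6-No1 was 2.87 and 7.79, and that of 129S1-No2 was 1.81 and 8.08. Mesothelial markers summed to 3.78, 7.54 and 6.93 in mHep of the mice in that order, and biliary markers to 7.43, 9.42 and 8.99. The mesothelial sum was nearly all Msln, at 3.76, 7.54 and 6.93. Of the 5 mesothelial markers, 1 was bright on all mHep arrays, and Wt1 and Lrrn4 were dim on all of them. The part of these markers in the differences between mice was not tested. Since the arrays of 129S1-No1 were all from the later scan, and those of 129S1-No2 all from the earlier, the scan and the mouse cannot be told apart between these mice.

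Against primary hepatocytes, the cultured cells were lower for every tested member on average, though with a single primary array the spread had to be taken from the cultured means. In eHep, 6 of 9 tested members were called lower (F5, F7, F10, F12, F13b and Plg), against 9.39% of genes tested. F5, F13b and Plg entered the comparison through the primary array alone, where they were high, and F7, F10 and F12 through mHep, so no called member passed the filter through eHep. The differences were -15.92 ± 2.20 for F10 (adjusted p = 0.00634), -15.25 ± 2.86 for F12, -15.48 ± 3.94 for Plg, -10.02 ± 1.61 for F13b, -9.94 ± 1.01 for F5 and -9.70 ± 2.26 for F7. As bounds under the percentile scaling used here, primary hepatocytes were at least 22300-fold above eHep for F10, 12800-fold for F12 and 14900-fold for Plg. In log2 these are 14.44, 13.65 and 13.86. Across the alternative settings the log2 difference was as small as -11.76 for F10, -10.75 for F12 and -11.25 for Plg. The fold values therefore depend on the processing. F2 (-12.73 ± 4.51, adjusted p = 0.110) and F11 (-6.94 ± 3.09, adjusted p = 0.182), bright in eHep of 129S1-No1, were not called, nor was F9 by its brighter probe (-3.61 ± 1.28, adjusted p = 0.110). The second F9 probe gave -8.28 for eHep (adjusted p = 0.0206) and -7.35 for mHep (adjusted p = 0.0400), both past the threshold, and the mean of both probes -5.94 for eHep (adjusted p = 0.0334) and -5.42 for mHep (adjusted p = 0.0566). The Plg call was lost after quantile normalization (adjusted p = 0.0537). Without C57B6-No1, 2 members (F5 and F10) were called.

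In mHep, 2 of 9 members were called lower than in primary hepatocytes, against 5.97% of tested genes: F13b at -8.69 ± 1.61 (adjusted p = 0.0213) and F5 at -7.98 ± 1.01 (adjusted p = 0.00622). Both entered through the primary array alone, being bright on every array of at most 1 mouse in culture, so that their calls describe where they were bright. The other 7 differences ran from -12.01 ± 3.94 for Plg to -3.49 ± 1.28 for F9. This count moved with the mice: 8 members were called without 129S1-No1 and 0 without C57B6-No1, where 3 had an unadjusted p under 0.05 by limma. Within the earlier scan, which held the primary array, 9 of 9 members were called lower in both eHep and mHep, against 22.3% and 16.6% of tested genes. After scaling, the mHep means of 129S1-No1 were below primary by 3.61 for F7, 3.96 for F10, 4.46 for F2 and 4.23 for F11. The gaps were 4.93 for Plg, 5.04 for F12, 6.13 for F13b and 6.53 for F5. The 75th percentile was 78.32 on the primary array and 626.8 to 726.9 on these mHep arrays, so the scaling adds to each gap. Before scaling, F7 had a signal of 1640 on the primary array and of 2080, 982 and 715 on these mHep arrays. Over all tested genes the median difference of eHep from primary was -0.189, and it was 0.324 after quantile normalization. Plg moved by more than that shift in eHep, from -15.48 to -13.95.

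The closest array-level comparison is that of slide 3, which held eHep and mHep of C57B6-No1 replicate 3 and the primary array, all of strain C57B6 and of 1 scan. There F10 read -7.21, 0.54 and 9.66 in that order, F2 read -6.94, 2.31 and 10.28, F12 read -6.99, -3.97 and 8.80, and F7 read -6.73, -4.34 and 4.39. F5 went from -6.80 to -4.17 and 3.28, and F11 from -4.02 to -5.36 and 4.42. F13b (-6.44, -6.60 and 3.24) and Plg (-6.26, -4.66 and 9.02) were low in both media. These are single arrays with no replicate check.

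The wider set of 45 clotting and fibrinolysis genes was taken by role, and 36 of them could be tested between media. Of these, 7 were called higher in mHep, against 1.38% of all genes tested, and 0 lower, against 0.452%. At an unadjusted p under 0.05 by limma, 14 were higher and 2 lower. Among those called, Fga and Fgb passed the filter on dim readings through both media. Fgg, Proz, Kng2, Pzp and Serpinf2 passed through mHep alone, where they were high, so the count is no support for a direction of the set. The median log2 difference of the 36 was 0.94, against -0.095 over all genes tested. The 3 fibrinogen chains, the substrate of thrombin, were all called: Fgg at 10.63 ± 0.42 (adjusted p = 0.00175), Fga at 6.73 ± 0.50 and Fgb at 6.52 ± 0.68. Of 9 tested anticoagulants 1 was called, Proz, a cofactor that helps to inhibit factor X, at 7.15 ± 0.48 (adjusted p = 0.00345). Proz directly follows F10 on chromosome 8, so that F7, F10 and Proz are 3 neighbours with differences of 2.84, 8.84 and 7.15. Proc (1.17 ± 0.69) and Serpinc1 (0.93 ± 0.45), the genes of protein C and antithrombin, were not called, with adjusted p of 0.494 and 0.410.

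On the contact side, Kng2, a kininogen, was called at 3.75 ± 0.41 (adjusted p = 0.0178), though not with normexp (adjusted p = 0.193). Kng1 just missed the threshold at 6.06 ± 1.02 (adjusted p = 0.0528). It passed in 15 of 20 alternative settings, with normexp at 4.63 (adjusted p = 0.0158), and missed in the other 5. Of 6 tested inhibitors of fibrinolysis, 2 were called: Pzp, a broad protease inhibitor, at 9.21 ± 0.52 (adjusted p = 0.00198) and Serpinf2, the main inhibitor of plasmin, at 4.95 ± 0.44 (adjusted p = 0.00861). Serpinf2 was bright in all 3 mice in mHep, unlike Plg. None of the 6 activators and receptors of fibrinolysis was called, with Plat at 0.95 ± 0.47 (adjusted p = 0.417) and Plaur at -1.19 ± 0.51 (adjusted p = 0.350). F3, the gene of tissue factor, was bright on all 14 cultured arrays and dim on the primary array, with 0.35 ± 0.41 between media (adjusted p = 0.765). The vitamin K genes Ggcx (0.52 ± 0.49) and Vkorc1 (1.28 ± 0.38) and the factor V and VIII export genes Lman1 (0.60 ± 0.39) and Mcfd2 (0.83 ± 0.42) were bright on all 15 arrays and not called.

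**Figure D4:**
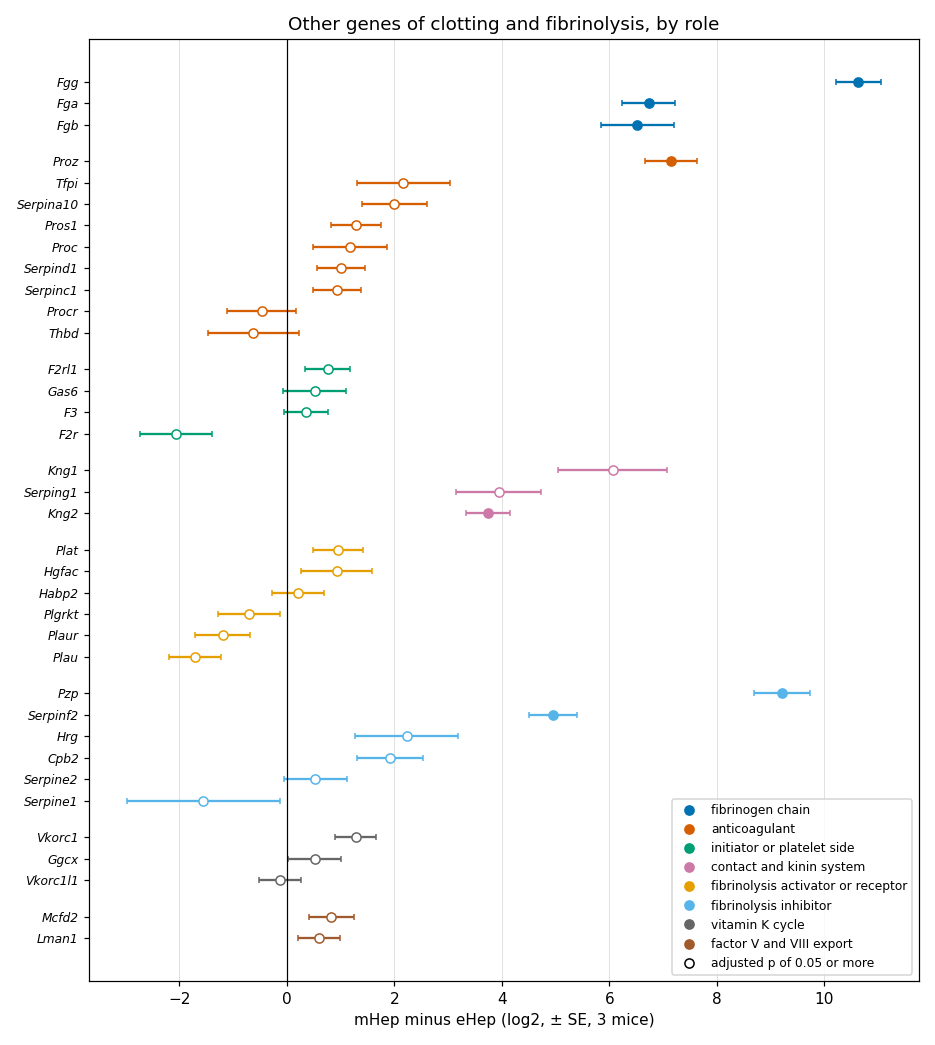
Difference between media (horizontal axis, mHep minus eHep, log2 ± SE over 3 mice) for the 36 tested genes of clotting and fibrinolysis other than the members, coloured by role; filled points passed an adjusted p of 0.05. The fibrinogen chains, Proz, Kng2, Pzp and Serpinf2 are filled and lie between 3.75 and 10.63, and the largest negative value is that of F2r at -2.06.

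Of 12 liver transcription factors, 3 were called higher in mHep, against 1.38% of all genes tested. They were Creb3l3 at 6.16 ± 0.38, Nr5a2 at 4.68 ± 0.65 and Nr1h4 at 3.18 ± 0.47 (adjusted p = 0.00258, 0.0316 and 0.0374). Called lower were 0, against 0.452% of genes, and 0 were lower also at an unadjusted p under 0.05 by limma. The Nr5a2 and Nr1h4 calls were lost after quantile normalization, with adjusted p of 0.0869 and 0.0716. Hnf4a and Foxa2, both bright on the 15 arrays, had 1.37 ± 0.40 and -0.19 ± 0.43 (adjusted p = 0.191 and 0.887). The member genes were also set beside all others by the shape of their levels. Over the 15 arrays, which share mice and the contrast with primary cells, the gene most correlated with F10 was Apoh (r = 0.996), an apolipoprotein of plasma, among 17034 genes. For F2 it was Hpx (r = 0.988), the haem carrier hemopexin, for F12 Cyp2a22 (r = 0.994) and for F13b Kmo (r = 0.992), an enzyme of tryptophan breakdown. For F7 it was Sec14l4 (r = 0.988), for F11 Pglyrp2 (r = 0.959) and for F9 by its brighter probe Lce1l (r = 0.989). F8, F5 and Plg were nearest to transcripts without a gene symbol. Among the members, F10 and F12 correlated at 0.95, F7 and F12 at 0.95 and F5 and F13b at 0.96, whereas F10 and F11 correlated at 0.45, all as descriptions over arrays that are not independent.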

How the data were processed

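Per the file headers, each of 15 arrays was a Cy3 scan read with Feature Extraction of Agilent (10.7.3.1, or 10.7.1.1 for the earlier scan) with probe positions in mm9. The deposited processed signal is an intensity, background-subtracted by the scanner software and not scaled between arrays. The authors also deposited a table of log2 values, used as an alternative, which followed the array signals with r from 0.9722 to 0.9999, and its scaling is not given in the sources used here. Outlier spots were dropped, spots of a probe averaged, and log2 signals centred on each array's 75th percentile. The brightest probe stood for a gene. No probe was saturated.

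A gene was tested where, in eHep or mHep, every array of 2 of 3 mice was well above background, or the primary array for that comparison, or every array of 1 mouse for the fit within mice. limma 3.58.1 (R 4.3.3) fitted 6 mouse means by medium with mouse as a block, 7 values by group against primary, and 12 arrays by mouse and medium. Levels are means of arrays, differences carry limma's SE, and Benjamini-Hochberg adjusted p-values under 0.05 over all genes were called, with a log2 difference of at least 1 against primary. Bounds ("at least N-fold") compare the brighter group's mean with the dimmer group's, each dim reading raised to the dimmest probe with that flag on its array. They hold for the main background and scaling alone. The number of arrays limits the precision. The eHep and mHep arrays come from the same mice per the labels, and their deviations correlated at 0.397, 0.563 and 0.539 within mice and at most 0.0114 between mice.

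All members were named. Of the wider lists, genes past the threshold, up to 4 others of each role, and the gene most correlated with each member were named. Klkb1, F3 and the markers were added for position or role. Members and lists were chosen with earlier results of these data known. Alternatives were normexp background (offset 50), 4 other scalings, dim readings raised to their limit, other filters and probe rules, arrays as samples with slide or scan terms, and leaving out mice or arrays. The second probe of F9 and Plg and the fits restricted to 1 scan within the mice and against primary were chosen after the data were seen. The fits were tested on simulated data. Some genes and motifs of the wider lists are not reported here. Promoters and neighbours are from RefSeq (GRCm38.p6). Figures were made in Python 3.11.15 (matplotlib 3.10.9, pandas 2.3.3).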

Additional observations from a re-analysis of the deposited data

Results flagged for a closer look

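The change between media differed between mice 129S1-No1 and C57B6-No1 for 5 members by the interaction term over 12 arrays. The differences of the log2 changes, 129S1-No1 minus C57B6-No1, were 9.44 for Plg, 4.76 for F12, 3.06 for F13b, -1.85 for F11 and -6.80 for F2. All arrays of 129S1-No1 and 4 of the 6 of C57B6-No1 were from the later scan, and with that scan alone these values were 9.78, 4.10, 2.90, -2.43 and -6.0.

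In eHep, the F13b reading of 129S1-No2 was -7.80, set apart from the nearest of the other 6 arrays at -6.63. All 7 readings were dim, and it was 1 such reading among 24 groups of 7 arrays examined, where chance gives about 1 in 20.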

How the results depend on the processing

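The count of all genes called between media was 267 and moved with most settings: 176 with normexp, 110 after quantile normalization and with the authors' table, 521 with median scaling, 105 with the percentile of detected probes, 658 without and 428 with a stricter filter. With arrays as samples it was 5024, 3006 with slide and 6176 with scan as a term, 1519 with the earlier scan alone, 7347 with the later, and 513 to 831 with a mouse left out. Of the called genes 75.3% were higher in mHep, against 91.4% with the percentile of detected probes and 85.5% after quantile normalization. Without the pairing by mouse (no replicate block), 2 genes and 0 members were called, with 2 members higher at an unadjusted p under 0.05 by limma. The members higher in mHep were 4 with median scaling, without a filter, with arrays as samples, with slide or scan as a term and within each scan, and 3 to 4 with a mouse left out. With arrays as samples, arrays of a mouse count as independent.

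Members lower in eHep than in primary hepatocytes were 2 (without C57B6-No1) to 8 (without 129S1-No1) with a mouse left out and 9 within the earlier scan. Members lower in mHep were 4 with normexp, 7 without a filter, 9 within the earlier scan and 0 (without C57B6-No1, where 3 had an unadjusted p under 0.05 by limma) to 8 (without 129S1-No1) with a mouse left out. Members higher in mHep of C57B6-No1 were 2 with normexp. The array replicate block within mice left these counts within 1.5 times.

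Values that turned sign were small except for F9. In C57B6-No1, F9 (0.04) became -0.09 with normexp, -0.02 after quantile normalization and with the authors' table and -0.03 in the later scan, and ranged from -0.79 to 0.80 with an array left out. F13b there (0.15) became -0.03, -0.02 and -0.02 in the same order, and ranged from -0.08 to 0.30 with an array left out. F11 there (-0.17) became 0.41 in the later scan and ranged from -0.38 to 0.15 with an array left out, above 0 without replicate 3 of eHep or of mHep. In 129S1-No1, F9 (-0.46) became 0.99 with the mean of its probes and 2.44 with the second. Its difference of changes (-0.50) became 0.91 and 2.32, and ranged from -1.26 to 0.33 with an array left out, above 0 without eHep C57B6-No1 replicate 3. Over the mice, F9 (0.11) became -0.07 with arrays as samples, -0.02 with slide, -0.07 with scan, -0.29 in the later scan and -0.21 to 0.40 with a mouse left out. F11 (-0.13) became 0.23 in the earlier scan and -1.10 to 0.81 with a mouse left out. With slide as a term it was -1.55 and called. The causes were not tested.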
